A study of Mus musculus with 16 samples.

Results

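The 32 genes described here are transcripts that mark the cells around the endothelium of the heart. They comprise 10 genes of fibroblasts, 11 of pericytes, 8 of vascular smooth muscle and 3 of the mesothelium, out of 43629 genes in the deposited table. They were taken by gene symbol from a list of names, without a threshold on any value but with earlier results of these data known, and each of the 32 was found in the table. The rule that names them also speaks of Schwann cell genes, but none is among the 32, and such genes are given below as a separate list.

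The RNA came from endothelial cells that magnetic beads against CD31, an endothelial surface protein, had captured from mouse hearts. The 16 samples form 4 groups of 4, all of the strain C57BL/6J, aged 8 to 10 weeks and taken on day 6 after tamoxifen, and each sample pools 2 mice. The groups are Cre controls, mice whose endothelium was to lose KLF2 (K2KO), KLF4 (K4KO) or both factors (DKO), so tamoxifen and a Cre are common to all of them as far as the labels say. The sources used here name neither the promoter that drives Cre nor the alleles of the controls.

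Pericytes wrap capillaries and smooth muscle cells wrap arteries, and both are recruited and kept by signals from the endothelium, chiefly PDGF-B acting on the receptor of the gene Pdgfrb and Notch ligands acting on the receptor of the gene Notch3. Fibroblasts make the collagen-rich matrix between the vessels, and the mesothelium covers the outer surface of the heart. Bead preparations of endothelium are known to carry RNA of these neighbours in small amounts, and capillary pericytes share a basement membrane with the cells that the beads bind. Some of the genes are also transcribed by other cells: Wt1 and the long form of Mylk are known from endothelium, and Gsn and Anpep from several tissues.

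Levels are scaled counts, the reads of a gene divided by the authors' factor for the library. Libraries held 21.1 to 106 M reads (megareads), and 1 read was worth 0.305 to 1.46 scaled counts. Control and K4KO libraries carry the numbers of the labels, 1 to 4, and K2KO and DKO libraries carry the numbers 2 to 5 of the table's columns, which could be tied to a group but not to single samples. K2KO library 2 and K4KO library 1 stood apart, with a read in 29670 and 29602 genes against 20582 to 24156 in the other 14 libraries, so results are also given without them. Changes are log2 differences ± SE from limma, p-values are adjusted over all genes tested, and a gene is called where the adjusted p is below 0.05. Klf2 was lower in K2KO than in controls (-1.06 ± 0.16, adjusted p = 0.00682), and Klf4 in K4KO was at 5819 ± 705 against 9691 ± 2466 (-0.71 ± 0.15, adjusted p = 0.118). In the DKO group neither was lower (Klf2 0.36 ± 0.16, adjusted p = 0.0881; Klf4 -0.03 ± 0.15, adjusted p = 0.923), so that group is called DKO-labelled below. Endothelial markers were abundant, with Pecam1, the gene of CD31 itself, at 48033 ± 3860.2 in controls and 65240.1 ± 5046 in the DKO-labelled libraries.

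The 32 genes together took 0.480 to 0.687% of the scaled counts in the 12 libraries of the other groups and 0.319 to 0.387% in the 4 DKO-labelled libraries. Per kilobase of exon, the pericyte gene Rgs5, a regulator of G protein signalling, had the highest control level, at 15975 ± 1022 scaled counts per kilobase (mean ± SD, n = 4 here and throughout). The smooth muscle actin gene Acta2 came next at 4784 ± 865, then Tagln, the gene of the actin-binding protein SM22, at 2582 ± 567, the fibroblast gene Gsn at 1648 ± 201 and the smooth muscle myosin gene Myh11 at 1561 ± 341. The last pair did not differ beyond their spread, and the other steps in this order are larger than the SD of either neighbour. At the other end stood the fibroblast genes Clec3b (20.9 ± 6.61) and Tcf21 (12.1 ± 3.41) and the mesothelial genes Msln (4.23 ± 1.11) and Upk3b (3.65 ± 1.45). Pericyte and smooth muscle transcripts were therefore the bulk of what the set measured, and the last 2 genes rest on few reads.

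**Figure D1:**
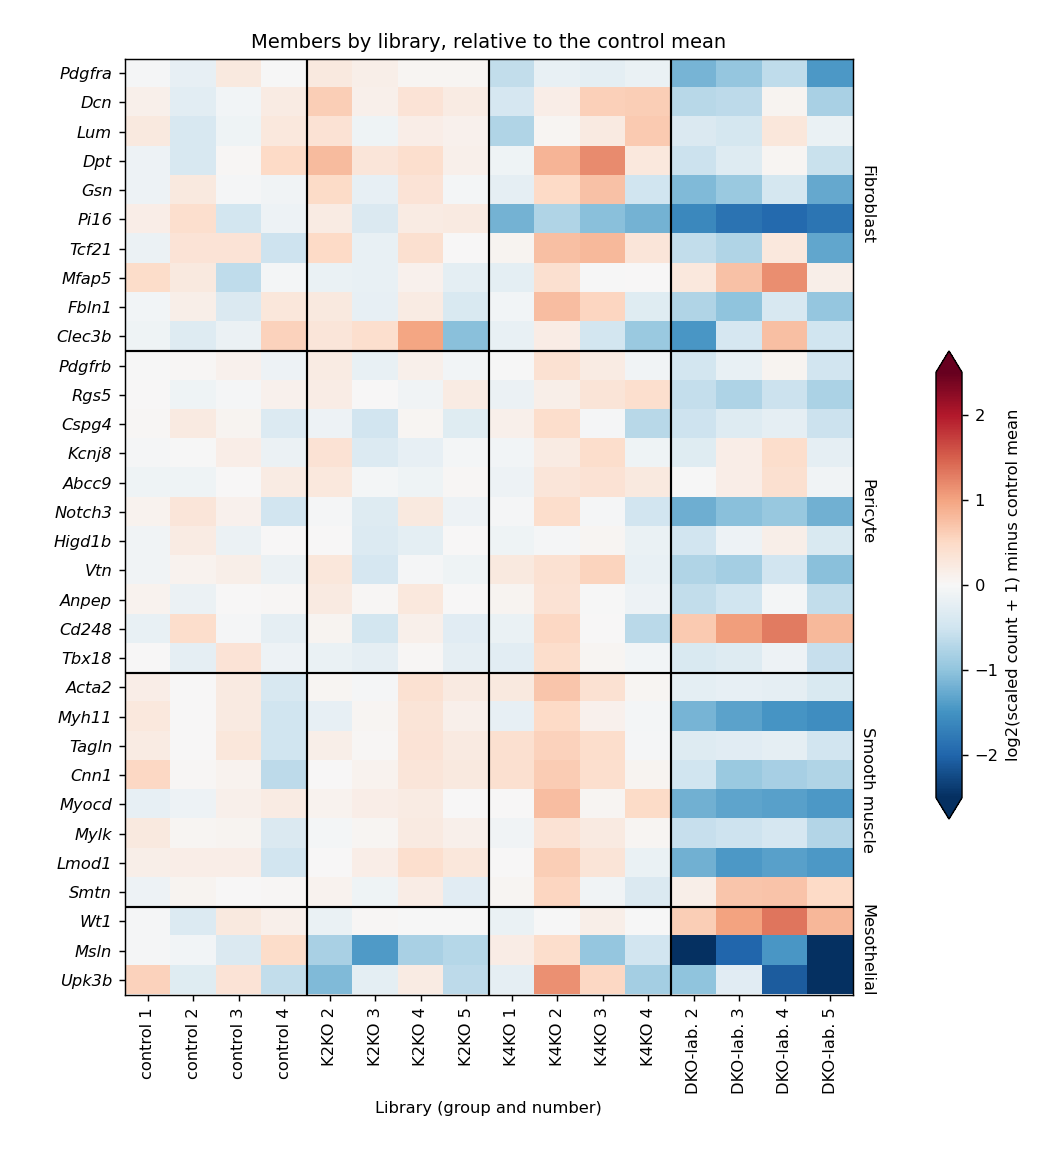
Each row is 1 of the 32 genes and each column 1 of the 16 libraries, and colour gives log2(scaled count + 1) minus the control mean, with the colour scale capped at both ends. The K2KO and K4KO columns are mixed, while most rows of the 4 DKO-labelled columns are below the control mean, apart from rows such as Cd248, Smtn, Wt1 and Mfap5.

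Against controls, the DKO-labelled libraries had lower levels of 15 of the 32 genes and higher levels of 3, and 14 did not pass the test. Here 38.3% of all 23816 genes tested were called, 19.0% of them higher and 19.3% lower. Falls outnumbered rises among the 32, while over all genes they were about even. All 32 passed the filter on low values. The share called over all genes depends on that filter. With a mean of at least 5 scaled counts required, 9169 of 16904 genes were called, 4533 higher and 4636 lower, and 20 of the 32. The median change of the 32 was -0.48 on the log2 scale, against -0.03 for all genes tested. All 4 DKO-labelled libraries lay below every control library for 12 of the 32 and above every control for 3, where 18.1 and 18.9% of all genes did so. In bulk samples such as these, fewer cells of a type and less RNA per cell cannot be told apart.

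The balance depends in part on the scaling. When libraries were scaled to the same median, the median of all genes moved from -0.03 to 0.18, and the calls over all genes moved from 4528 higher and 4591 lower to 6922 higher and 2908 lower. Under it the 32 genes had 5 higher and 12 lower, and their median was -0.22, still below that of all genes. The fall of Fbln1, Anpep and Mylk did not pass the test under it, and rises of Abcc9 and Mfap5 did.

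Other cells' transcripts moved in the same libraries, where 19.3% of all genes were called lower and 19.0% higher. Summed over their marker lists, cardiomyocyte transcripts stood at 15.8 to 27.1% of the control mean in the DKO-labelled libraries, against 71 to 171% among controls, with 13 of 13 genes lower. Erythroid transcripts stood at 18.7 to 32.1% with 7 of 7 lower, lymphocyte transcripts at 29.2 to 35.8% with 5 of 8 lower, and macrophage transcripts at 64.5 to 126% with 2 of 8 lower. The endothelial list stood at 95 to 129.6%, with 6 of 15 genes higher and 5 lower. Their part in the changes of the 32 genes, and of the further lists given below, was not tested.

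**Figure D2:**
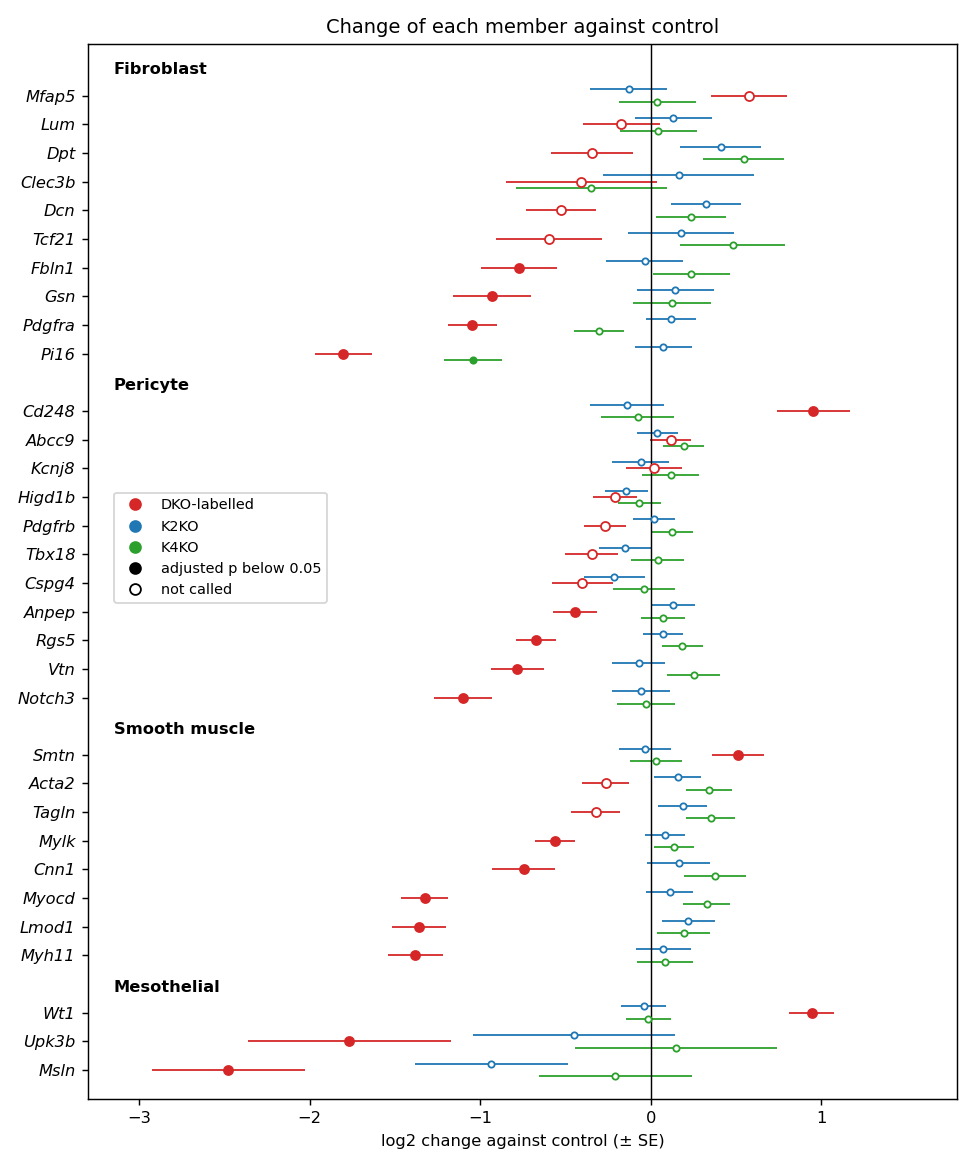
Points are log2 changes against control with their SE for each of the 32 genes, red for DKO-labelled, blue for K2KO and green for K4KO, filled where the adjusted p was below 0.05. Red points spread from -2.48 (Msln) to 0.95 (Cd248), and the single knockouts have 1 filled point, Pi16 in K4KO.

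Among the 10 fibroblast genes, 4 were lower in the DKO-labelled libraries than in controls, none was higher and 6 did not pass the test, with a median of -0.56. The share called is near the 38.3% of all genes under the main filter (19.3% lower, 19.0% higher). A list of 25 other fibroblast genes, given below, had the opposite sign, with 12 higher, 7 lower and a median of 0.38. The 4 were Pdgfra, Pi16, Gsn and Fbln1. Pdgfra (chr5:75152291-75198204) encodes the PDGF receptor that marks fibroblasts of the heart. It was at 568, 507, 692 and 577 scaled counts in the 4 controls and at 259, 299, 376 and 216 in the DKO-labelled libraries, in order of library number. Every DKO-labelled library lay below every control, and the change was -1.05 ± 0.14 (adjusted p = 9.66e-06). Pi16 (chr17:29318877-29329413) encodes a peptidase inhibitor that marks fibroblasts of the outer vessel wall. It was at 764, 909, 489 and 616 in controls and at 221, 188, 176 and 191 in the DKO-labelled libraries, the narrowest group of the 4, and changed by -1.80 ± 0.17 (adjusted p = 1.09e-07). Gsn (chr2:35279663-35307892), the gene of the actin-severing protein gelsolin, was at 4709, 6125, 5092 and 4891 in controls and at 2423, 2729, 3829 and 2144 in the DKO-labelled libraries, with no overlap and a change of -0.93 ± 0.23 (adjusted p = 0.00279). Fbln1, the gene of the matrix protein fibulin-1, fell from 166 ± 32.2 to 96.9 ± 19.8 (-0.77 ± 0.22, adjusted p = 0.00946).

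Among the 6 fibroblast genes that did not pass, a pair came close. Dcn (chr10:97479500-97518162), the gene of the collagen-binding proteoglycan decorin, was at 5367, 4092, 4653 and 5640.3 in controls and at 3013, 3120.5, 5113 and 2802 in the DKO-labelled libraries. Libraries 2, 3 and 5 of that group were below every control and library 4, the deepest of all at 106 M reads, was among the controls. Its change was -0.52 ± 0.20 (adjusted p = 0.0502), and without DKO library 4 it was -0.72 with an adjusted p of 0.00577. It was called in 9 of 25 alternatives. Mfap5, a glycoprotein gene of elastic microfibrils, pointed the other way, at 287, 246, 134 and 201 in controls and 249, 349, 471 and 230.5 in the DKO-labelled libraries (0.58 ± 0.22, adjusted p = 0.0502). The groups overlapped, since DKO libraries 2 and 5 were below control 1. Mfap5 was called higher in 11 of 25 alternatives, edgeR (adjusted p = 0.0436) and DESeq2 (0.0355) among them, and without DKO library 4 its change was 0.38 (adjusted p = 0.199).

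Lum, the gene of the proteoglycan lumican, had a change of -0.17 ± 0.23 (adjusted p = 0.622), and Dpt, which encodes the matrix protein dermatopontin, one of -0.34 ± 0.24 (adjusted p = 0.293). Lum and Dcn are neighbours on chromosome 10, 47338 bases apart with no gene of the annotation between them. The transcription factor gene Tcf21, needed for cardiac fibroblasts to form, was at 24.7, 35.1, 35 and 19 in controls and 17.7, 16.1, 33.5 and 10.6 in the DKO-labelled libraries (-0.60 ± 0.31, adjusted p = 0.148). Clec3b, the gene of the plasminogen-binding protein tetranectin, spread over 6.65, 14.8, 34.4 and 13.8 in the DKO-labelled libraries, wider than the controls at 18.5, 15.8, 18.1 and 30.3, and gave -0.41 ± 0.44 (adjusted p = 0.534). For Tcf21 and Clec3b these values rest on small numbers of reads in most libraries, and their SEs are wider than that of Dcn. In DKO library 4 a read is worth 0.305 scaled counts. Its values of 33.5 and 34.4, the highest of that group, therefore rest on the most reads of the group.

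Of the 11 pericyte genes, 4 were lower in the DKO-labelled libraries (Rgs5, Notch3, Vtn and Anpep), 1 was higher (Cd248) and 6 did not pass the test, with a median of -0.35. The share called is again near the 38.3% of all genes. Rgs5 (chr1:169655501-169695813) was at 73495, 67392, 71116 and 78489 in controls and at 47932, 42739, 49991 and 41918 in the DKO-labelled libraries. The groups were far apart, and the level was 62.9% of the control mean (-0.67 ± 0.12, adjusted p = 0.000147). Notch3 (chr17:32120820-32166880), the Notch receptor of mural cells, was at 7959.6, 9206, 8013 and 5347 in controls and at 3195, 3647, 3907 and 3239.5 in the DKO-labelled libraries (-1.10 ± 0.17, adjusted p = 3.44e-05). Control 4 was the lowest control and was still above each of the 4. A long noncoding gene on the opposite strand overlaps Notch3 but averaged 12.03 scaled counts in controls, so its reads are few beside those of Notch3. Vtn, the gene of the adhesion protein vitronectin, fell from 1308 ± 128 to 765 ± 126 (-0.78 ± 0.15, adjusted p = 0.000409) with no overlap. Anpep, the gene of aminopeptidase N, was at 404, 347, 387 and 391 in controls and 248, 269, 369.5 and 249.6 in the DKO-labelled libraries, where library 4 was at the control level (-0.44 ± 0.13, adjusted p = 0.00961).

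Cd248 (chr19:5068078-5070637) rose. It encodes endosialin, a surface protein of pericytes and fibroblasts in growing tissue, and was at 192, 298, 216 and 187 in controls and at 347, 456, 540.1 and 386 in the DKO-labelled libraries. Every DKO-labelled library was above every control, with a change of 0.95 ± 0.22 (adjusted p = 0.00145).

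The potassium channel genes Kcnj8 and Abcc9 were close to controls. Kcnj8 encodes the pore and Abcc9 the regulatory subunit of the ATP-sensitive potassium channel of mural cells, and they lie next to each other on chromosome 6, 16505 bases apart with no gene of the annotation between them. Kcnj8 (chr6:142564939-142571356) was at 1451, 1467, 1663 and 1329 in controls and at 1195, 1649, 1997 and 1259 in the DKO-labelled libraries, and Abcc9 (chr6:142587862-142702274) at 7519.7, 7463, 8188 and 9298 and 7984, 9082, 10710.4 and 7634. The groups overlapped for both, with changes of 0.02 ± 0.17 (adjusted p = 0.954) and 0.12 ± 0.12 (adjusted p = 0.504). The sign of both turned negative with quantile normalisation. Pdgfrb, the receptor through which endothelial PDGF-B recruits pericytes, was at 6420.1, 6671, 6997 and 5968 in controls and 4699, 5742, 6784 and 4672 in the DKO-labelled libraries (-0.27 ± 0.12, adjusted p = 0.102). Cspg4, the gene of the NG2 proteoglycan, gave -0.40 ± 0.18 (adjusted p = 0.091), and Tbx18, a transcription factor gene of mural cells, -0.35 ± 0.15 (adjusted p = 0.0892). Higd1b, a hypoxia-domain gene known as a pericyte marker, gave -0.21 ± 0.13 (adjusted p = 0.219). Of 25 alternatives, Pdgfrb was called lower in 2, Cspg4 in 5, and Tbx18 and Higd1b in 1 each.

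The stretch just before the start site is shown for the 4 pericyte genes whose window holds no annotated exon, since they include genes that fell and 1 that did not pass. RefSeq promoters on GRCm38.p6 were matched for 20 of the 32 genes, 23 windows in all, each of 250 bases up to the start site. They are written 5′ to 3′ along the strand of the gene. Capitals mark CACCC or its reverse complement GGGTG, the letters that Krüppel-like factors are known to bind.
Rgs5, chr1:169655251-169655500, plus strand: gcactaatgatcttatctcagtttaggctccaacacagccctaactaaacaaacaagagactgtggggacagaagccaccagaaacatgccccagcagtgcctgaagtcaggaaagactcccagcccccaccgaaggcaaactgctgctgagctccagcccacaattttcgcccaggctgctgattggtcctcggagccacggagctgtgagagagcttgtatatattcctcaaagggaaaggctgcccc
Notch3, chr17:32166891-32167140, minus strand: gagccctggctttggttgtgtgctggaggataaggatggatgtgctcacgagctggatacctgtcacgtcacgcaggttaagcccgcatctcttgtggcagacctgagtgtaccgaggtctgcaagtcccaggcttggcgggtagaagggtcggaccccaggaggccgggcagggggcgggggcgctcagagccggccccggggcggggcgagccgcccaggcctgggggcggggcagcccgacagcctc
Anpep, chr7:79848211-79848460, minus strand: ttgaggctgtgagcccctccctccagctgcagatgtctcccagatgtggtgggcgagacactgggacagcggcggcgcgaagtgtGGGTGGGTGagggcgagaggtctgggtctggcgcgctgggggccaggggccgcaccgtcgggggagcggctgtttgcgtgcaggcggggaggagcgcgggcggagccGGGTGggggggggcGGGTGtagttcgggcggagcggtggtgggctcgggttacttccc
Kcnj8, chr6:142571615-142571864, minus strand: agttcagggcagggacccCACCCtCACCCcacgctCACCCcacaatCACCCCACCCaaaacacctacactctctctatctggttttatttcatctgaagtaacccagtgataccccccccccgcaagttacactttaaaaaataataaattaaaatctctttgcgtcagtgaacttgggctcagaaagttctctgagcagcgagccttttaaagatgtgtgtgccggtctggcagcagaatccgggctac
Rgs5 and Notch3, both lower in the DKO-labelled libraries, hold no such box here, while Anpep, also lower, holds 4 and Kcnj8, close to controls, holds 5, some of them abutting. A box was present in 17 of the 23 windows, 73.9%, against 52.0% of 32817 RefSeq promoter windows of the same length. The difference was not tested. Gsn and Fbln1 gave several windows, those of Fbln1 overlapping, so the windows are not independent. The windows of Pi16 and Tbx18 lie wholly in annotated exons. A CArG box, the letters CC, then 6 of A or T, then GG, which serum response factor is known to bind, had been searched first. It was in 0 of the 23 windows, against 1.47% of all, and so few windows cannot tell 0 from that share. Myh11, Tagln and Myocd had no window among the 23. The choice of CACCC and of the windows shown was made after those counts were known. These are letter matches, and the deletion is in endothelial cells while these genes mark other cells.

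Of the 8 smooth muscle genes, 5 were lower in the DKO-labelled libraries, 1 was higher and 2 did not pass the test, with a median of -0.65, where 19.3% of all genes were lower and 19.0% higher. Myocd (chr11:65176561-65269989) encodes myocardin, the coactivator that switches on contractile genes with serum response factor. It was at 597, 635, 755 and 795 in controls and at 299, 278, 269 and 255 in the DKO-labelled libraries, less than any control (-1.33 ± 0.14, adjusted p = 3.86e-07). Myh11 (chr16:14194527-14291408), the smooth muscle myosin heavy chain, was at 13866, 11761, 13581 and 8239.9 in controls and at 5215, 4594, 4177 and 3972 in the DKO-labelled libraries (-1.38 ± 0.16, adjusted p = 1.47e-06). Control 4 was low for this gene and the groups did not overlap. Lmod1 (chr1:135324807-135368065), the gene of an actin filament nucleator, was at 1165, 1178, 1178 and 755 in controls and at 455, 390.2, 410.1 and 387 in the DKO-labelled libraries (-1.36 ± 0.16, adjusted p = 1.21e-06). Mylk, the myosin light chain kinase gene, fell from 7520.2 ± 1269 to 5056 ± 445 (-0.56 ± 0.12, adjusted p = 0.000817), again without overlap. Cnn1, the gene of the actin-binding protein calponin, was at 424, 303, 316 and 188 in controls and 209.5, 156, 167 and 176 in the DKO-labelled libraries, where library 2 overlapped control 4 (-0.75 ± 0.18, adjusted p = 0.00278).

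Acta2 and Tagln, the smooth muscle genes with the highest control levels per kilobase of exon, did not pass the test. Acta2 (chr19:34241090-34255336) was at 11633, 10502, 12053 and 7830.2 in controls and at 8761, 8960.1, 8901 and 7948 in the DKO-labelled libraries, with control 4 below all 4 of them (-0.26 ± 0.14, adjusted p = 0.148). Tagln was at 5775, 5087, 6103 and 3566 in controls and 4044, 4131, 4307 and 3624 in the DKO-labelled libraries (-0.32 ± 0.14, adjusted p = 0.0875), again with control 4 lowest. Without control 4 both passed the test, Acta2 at -0.40 (adjusted p = 0.0169) and Tagln at -0.49 (adjusted p = 0.00309). With all libraries kept, both were called with quantile normalisation (adjusted p = 0.00819 for Acta2 and 0.0105 for Tagln). Tagln was also called with edgeR (0.0312) and DESeq2 (0.0469). Of 25 alternatives Acta2 was called in 2 and Tagln in 5. Tagln overlaps the protease gene Pcsk7 on the opposite strand by 65 bases, and it is not stated whether counting used the strand.

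Smtn was higher. It encodes smoothelin, an actin-bound protein of contractile smooth muscle, and was at 4195, 4813, 4598 and 4658 in controls and at 5079, 7340, 7504 and 6427 in the DKO-labelled libraries. All 4 were above every control and library 2 was the closest (0.51 ± 0.15, adjusted p = 0.0116). With quantile normalisation the change was 0.32 with an adjusted p of 0.12.

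**Figure D3:**
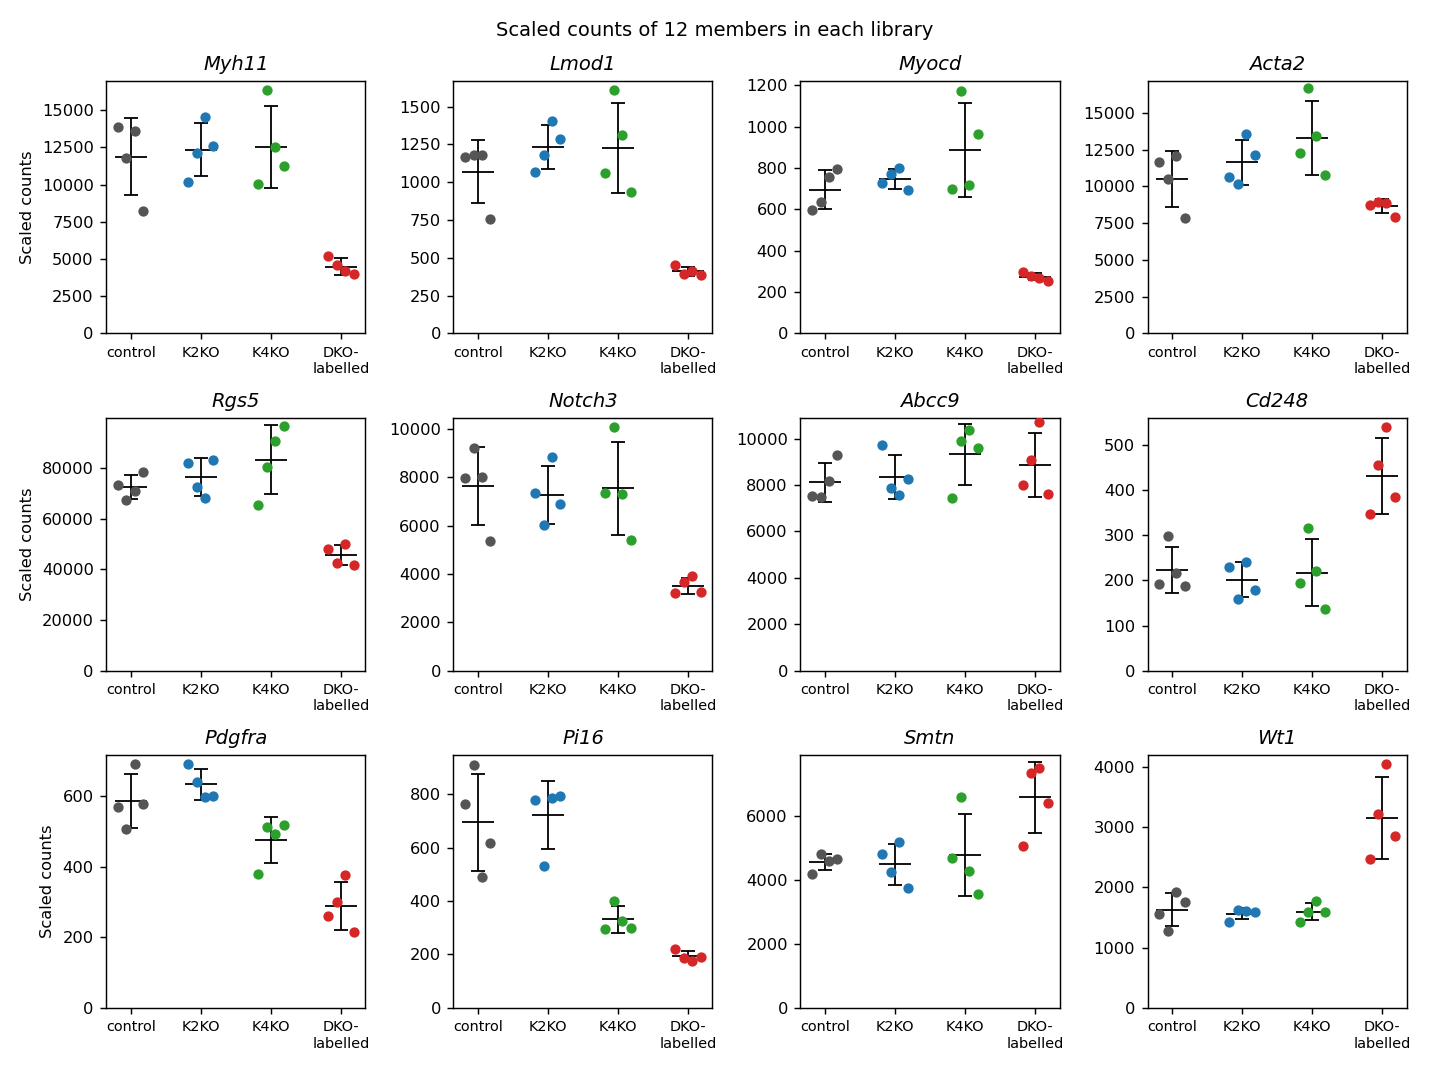
Dots are libraries, horizontal lines the group means and bars the SD (n = 4), and the vertical axis is in scaled counts from 0. Myh11, Lmod1, Myocd, Rgs5, Notch3, Pdgfra and Pi16 are lower in the DKO-labelled libraries with no overlap with controls, Cd248, Smtn and Wt1 are higher, Acta2 and Abcc9 overlap, and Pi16 is also low in K4KO.

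The 3 mesothelial genes did not move together. Wt1 (chr2:105126529-105173616), the transcription factor gene of the mesothelium that endothelial cells can also use, was at 1565, 1273, 1917 and 1749 in controls and at 2464, 3224, 4055 and 2849.7 in the DKO-labelled libraries. The groups did not overlap and the change was 0.94 ± 0.13 (adjusted p = 1.17e-05). Msln, the gene of the mesothelial surface protein mesothelin, and Upk3b, a uroplakin gene of the mesothelium, were at the edge of detection. Msln had 10, 10, 8 and 14 reads in the controls and 1, 2, 13 and 0 in the DKO-labelled libraries, the 13 being from the deepest library, and its scaled counts there were 1.11, 2.47, 3.96 and 0. Its change was -2.48 ± 0.45 (adjusted p = 0.000173). Upk3b had 15, 8, 13 and 6 reads in controls and 5, 8, 7 and 0 in the DKO-labelled libraries, with a change of -1.77 ± 0.59 (adjusted p = 0.0236), a call that 6 of 25 alternatives did not give, those without control 1, control 3, DKO 4 or DKO 5 among them (adjusted p = 0.0708, 0.0597, 0.0563 and 0.106). In DKO library 5 neither had a read, which at a count of 0 leaves room for up to 3 reads. The sum of the 3 genes is nearly all Wt1 and stood at 149.6 to 246% of the control mean.

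Few of the 32 genes were called in the single knockouts. In K2KO against control, limma called 0 of the 32 genes, where 0.168% of all genes were called (0.139% higher and 0.0294% lower), and 0 also had an unadjusted p below 0.05, where 6.48% of all genes did. With edgeR and with DESeq2 on the recovered reads, 0 were called and 1 had an unadjusted p below 0.05, where 7.6 and 3.53% of all genes did. The changes ranged from -0.93 (Msln) to 0.41 (Dpt), with a median of 0.07. For the 8 genes with the largest changes in the DKO-labelled libraries, the K2KO changes were -0.93 ± 0.45 for Msln, 0.07 ± 0.17 for Pi16, -0.45 ± 0.59 for Upk3b, 0.08 ± 0.16 for Myh11, 0.22 ± 0.16 for Lmod1, 0.11 ± 0.14 for Myocd, -0.06 ± 0.17 for Notch3 and 0.12 ± 0.14 for Pdgfra. For Cd248 and Wt1, which rose there, they were -0.14 ± 0.22 and -0.04 ± 0.13.

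In K4KO against control, 1 of the 32 was called, where 0.063% of all genes were (0.0294% higher and 0.0336% lower). An unadjusted p below 0.05 was found for 5 of the 32 and for 7.06% of all genes. The called gene was Pi16, at 296, 401, 326 and 299 in the K4KO libraries against 764, 909, 489 and 616 in controls and 779.8, 529, 785 and 794 in K2KO. Each K4KO library was below every control and every K2KO library (-1.04 ± 0.17 against control, adjusted p = 0.0267). The call was lost when only the groups compared were fitted (adjusted p = 0.146), without control 1, control 2, K4KO 1, K4KO 3 or K4KO 4 (0.109, 0.108, 0.0643, 0.0873 and 0.0564), and without K2KO 2 and K4KO 1 together (0.0911). The change stayed between -0.90 and -1.20 throughout. The summed fibroblast genes stood at 76.1 to 146% of the control mean in the K4KO libraries. Which cells the Pi16 reads came from was not tested. The other 4 were Dpt (0.55 ± 0.24), Tagln (0.35 ± 0.14), Acta2 (0.34 ± 0.14) and Myocd (0.33 ± 0.14), with adjusted p values of 0.66, 0.611, 0.606 and 0.636. The changes of all 8 smooth muscle genes were above 0 in K4KO, with a median of 0.26, and none was called. Pdgfra was at 379, 513, 492 and 518 in K4KO (-0.30 ± 0.14, adjusted p = 0.708). Directly between K2KO and K4KO, Pi16 was the 1 gene of the 32 called, higher in K2KO by 1.12 (adjusted p = 0.00313), where 0.445% of all genes were called, 0.349% higher and 0.0966% lower. Without K2KO 2 and K4KO 1 that adjusted p was 0.0656.

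Set against the single knockouts, the DKO-labelled libraries again had mostly lower levels. Against K2KO, 18 of the 32 were lower and 4 higher, where 36.6% of all genes were called, 18.9% lower and 17.7% higher. Against K4KO, 21 were lower and 3 higher, where 39.6% of all genes were called, 20.4% lower and 19.1% higher. These comparisons share the DKO-labelled libraries with the one against controls. Dcn, close to the threshold against controls, had a change of -0.85 ± 0.20 against K2KO and -0.76 ± 0.20 against K4KO (adjusted p = 0.0026 and 0.0055). Acta2 changed by -0.42 ± 0.14 and -0.61 ± 0.14 (adjusted p = 0.0205 and 0.00147), and Tagln by -0.51 ± 0.14 and -0.68 ± 0.14 (adjusted p = 0.00843 and 0.000863). Pi16 changed by -1.88 ± 0.17 against K2KO and by -0.76 ± 0.17 against K4KO (adjusted p = 7.98e-08 and 0.0012). Kcnj8 and Abcc9 stayed between -0.10 and 0.08 in both. In the main fit Lum, Clec3b, Cspg4, Higd1b, Tbx18, Kcnj8 and Abcc9 did not pass in any comparison of the DKO-labelled libraries with another group.

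The interaction contrast asks whether the DKO-labelled libraries differ from what the sum of the single knockouts would give. It was called for 20 of the 32 genes, 18 below the sum and 2 above it, where 26.7% of all genes were called, 13.8% below and 12.8% above. Lmod1 (-1.77 ± 0.22, adjusted p = 1.42e-05), Myocd (-1.77 ± 0.20, adjusted p = 4.64e-06) and Myh11 (-1.54 ± 0.23, adjusted p = 7.35e-05) lay farthest below. Cd248 (1.17 ± 0.31, adjusted p = 0.00767) and Wt1 (0.999 ± 0.19, adjusted p = 0.000599) lay above. Acta2 and Tagln were among those below the sum, at -0.76 ± 0.19 and -0.86 ± 0.20 (adjusted p = 0.00633 and 0.00374). For Pi16 it was -0.84 ± 0.24 (adjusted p = 0.0134), beside single changes of 0.07 in K2KO and -1.04 in K4KO and of -1.80 in the DKO-labelled libraries. After scaling to the same median the interaction was called for 10 of the 32 genes below and 4 above. Over all 23816 genes tested it was then called for 2113 below and 5825 above. Under that scaling Fbln1, Tcf21, Mylk, Pi16, Pdgfra, Tagln, Acta2 and Anpep were no longer called. Mylk, Pi16, Pdgfra, Tagln, Acta2 and Anpep were called in the other 23 of 24 alternatives, Fbln1 in 14 and Tcf21 in 9. Tcf21 was not called with edgeR (adjusted p = 0.0591) or DESeq2 (0.0854), nor without any 1 of control 1 or 4, K2KO 2 or 4, K4KO 2 or 3, or DKO 2, 3 or 5. Fbln1 was not called without any 1 of control 1 or 3, K2KO 2 or 4, K4KO 2 or 3, or DKO 3 or 5.

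Ratios between genes within a library do not depend on its scaling, and they show that the members of a class changed unequally. Of 10 pairs computed, chosen after the levels were known, 6 are described, and they carry no test. Myh11 to Acta2 was 1.12 ± 0.057 in controls, 1.06 ± 0.099 in K2KO, 0.942 ± 0.097 in K4KO and 0.519 ± 0.054 in the DKO-labelled libraries. For this pair control 4, low in contractile transcripts, was the lowest control at 1.05, against 1.12 to 1.19 in the others. For Notch3 to Pdgfrb, given below, control 4 was at 0.896, against 1.15 to 1.38 in the others. Lmod1 to Tagln was 0.21 ± 0.017 in controls and 0.102 ± 0.0088 in the DKO-labelled libraries. In pericytes, Rgs5 to Abcc9 was 8.98 ± 0.58 and 5.22 ± 0.65, Notch3 to Pdgfrb 1.17 ± 0.2 and 0.646 ± 0.053, and Cd248 to Pdgfrb 0.0342 ± 0.007 and 0.0788 ± 0.0036. The groups did not overlap in any of these. Pi16 to Dcn was 0.145 ± 0.054 in controls, 0.117 ± 0.019 in K2KO, 0.0594 ± 0.02 in K4KO and 0.059 ± 0.017 in the DKO-labelled libraries, so K4KO and the DKO-labelled libraries stood at about the same ratio.

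**Figure D4:**
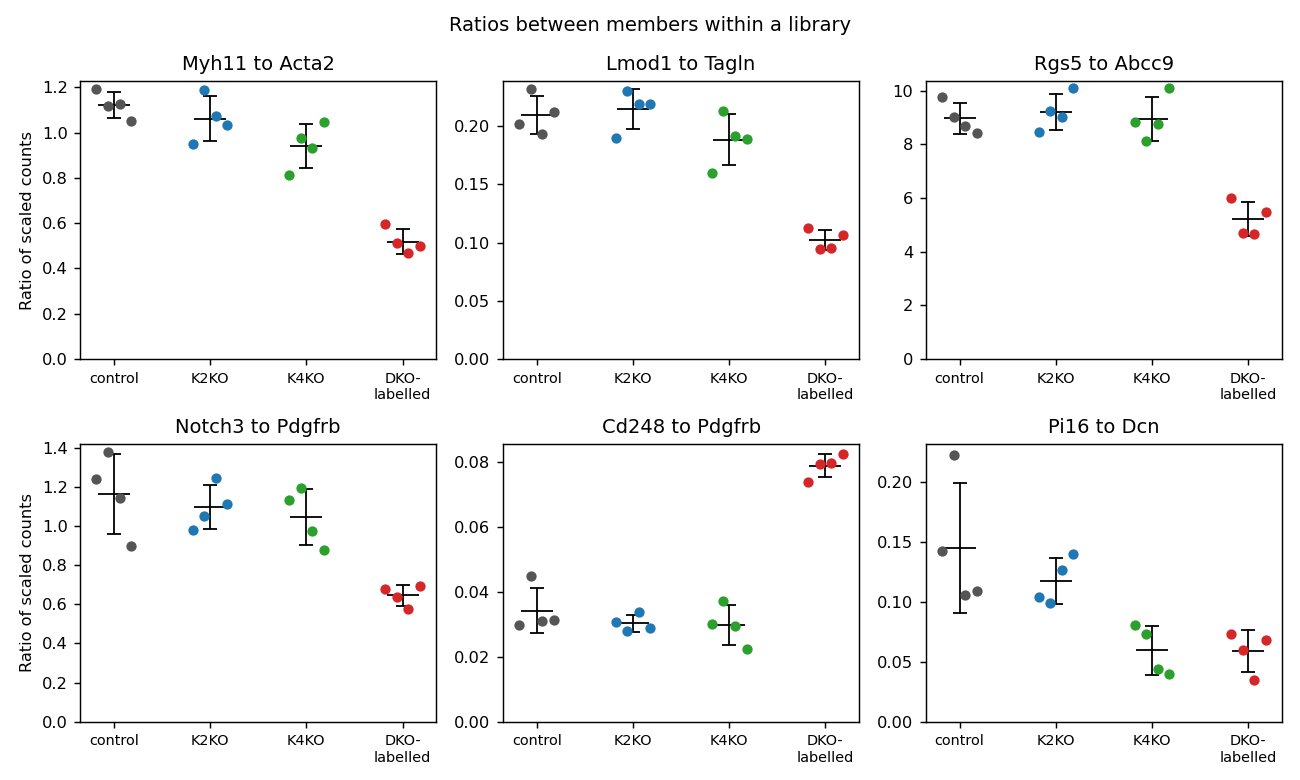
Each panel gives the ratio of the scaled counts of a pair of genes in each library, with the group mean and SD (n = 4). The DKO-labelled libraries are apart from the other groups for the first 5 pairs, and for Pi16 to Dcn the K4KO libraries lie beside the DKO-labelled ones.

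Libraries of a group also differed among themselves. As the median over the 8 smooth muscle genes of log2 minus the control mean, control 4 was at -0.44 while the other controls were between 0.03 and 0.18, and K4KO 2 was the highest at 0.60. The DKO-labelled libraries were tight for smooth muscle, between -0.73 and -0.54. For fibroblast genes DKO library 4 was at 0.06, with the others of its group between -0.88 and -0.70, and for pericyte genes it was at -0.05, with the others between -0.54 and -0.32. Without DKO library 4, Dcn, Tcf21, Pdgfrb and Higd1b also passed the test against controls, at -0.72, -0.88, -0.38 and -0.33 (adjusted p = 0.00577, 0.024, 0.0183 and 0.0335). Summed levels of the DKO-labelled libraries were 51.2 to 88.4% of the control mean for the fibroblast genes, 61.3 to 77% for the pericyte genes and 65.5 to 75.1% for the smooth muscle genes. The controls spanned 94.7 to 105%, 96.4 to 103% and 76.4 to 112%. Rgs5 is most of the pericyte sum, at 72623 of 101461 scaled counts in controls. Sums of the further lists given below did not all fall. In the DKO-labelled libraries they were 184.3 to 248.9% for other fibroblast genes and 124.8 to 150.6% for other pericyte genes. The median over the other pericyte genes was nevertheless between -0.88 and -0.42 in those libraries, so their sum rose while most of them fell. For other smooth muscle genes they were 84.2 to 92.6%.

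**Figure D5:**
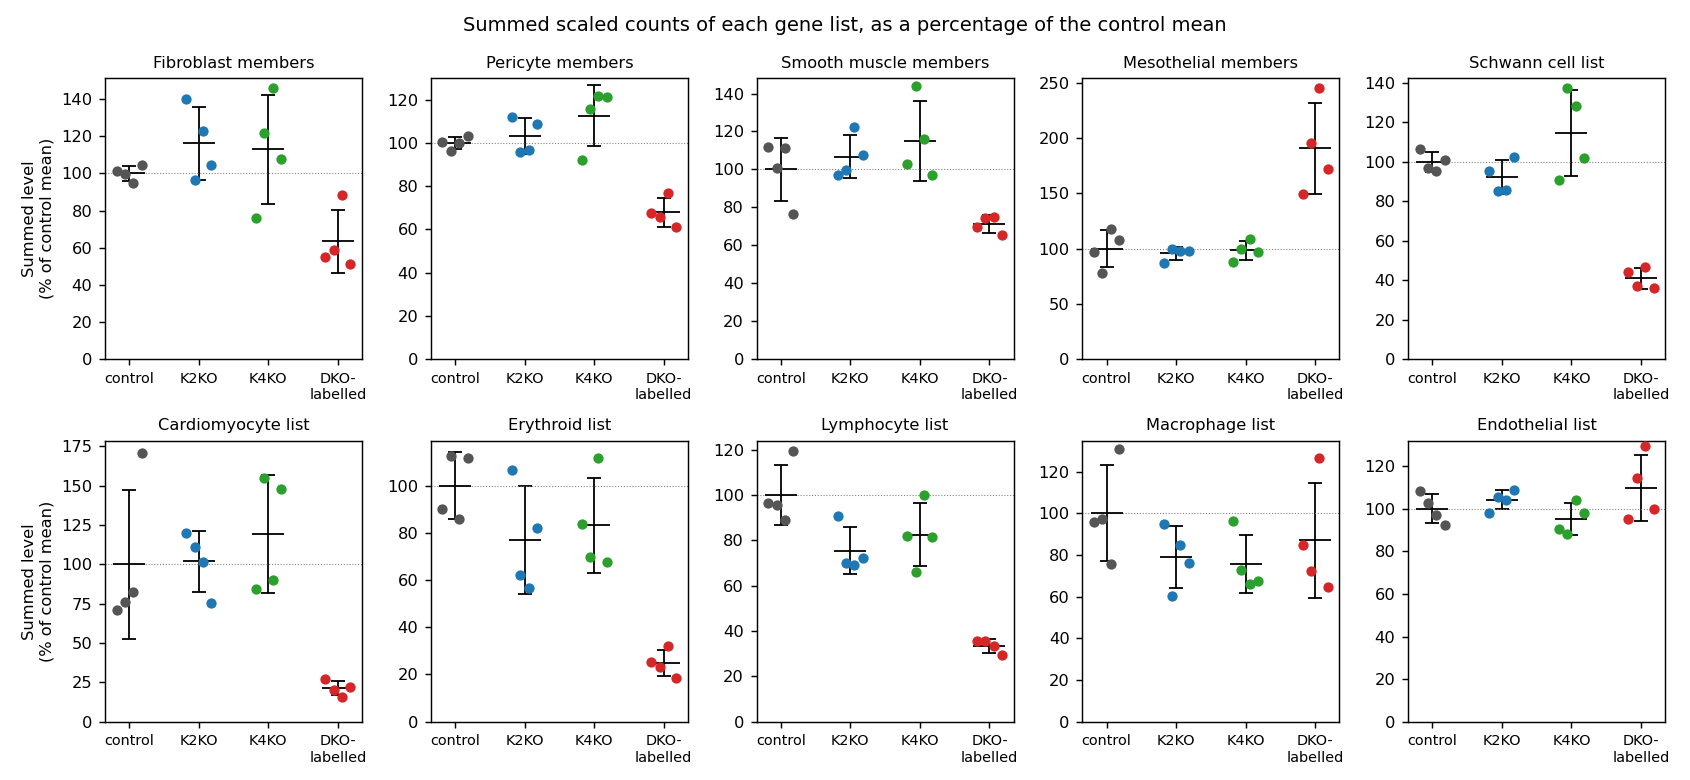
Dots are libraries and the vertical axis is the summed scaled count of a gene list as a percentage of the control mean, with group mean and SD (n = 4). The DKO-labelled libraries are below the controls for the fibroblast, pericyte and smooth muscle genes and lower still for the Schwann cell, cardiomyocyte, erythroid and lymphocyte lists, above them for the mesothelial sum, and overlap them for the macrophage and endothelial lists.

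Further genes of the same cells were listed to see whether the 32 stand for them. Of 25 other fibroblast genes, 12 were higher in the DKO-labelled libraries and 7 lower, with a median of 0.38, the opposite sign to the 10 members. Among all genes tested 19.0% were higher and 19.3% lower. The rises were led by Fstl1, a secreted glycoprotein gene (6211 ± 255 to 17720.1 ± 1898, 1.51 ± 0.08, adjusted p = 2.92e-10), the fibrillar collagen gene Col5a2 (1.93 ± 0.13), Col6a3 of the microfibrillar collagen VI (1.33 ± 0.16) and the transcription factor gene Meox1 (0.95 ± 0.11). Several of these genes are also transcribed by endothelial cells, so a fibroblast origin of their reads cannot be told apart from an endothelial one.

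Of 13 other pericyte genes, 8 were lower and 1 higher, with a median of -0.68, where 19.3% of all genes were lower and 19.0% higher. The nitric oxide receptor subunit genes Gucy1a3 (5641 ± 734 to 2370.4 ± 333, -1.25 ± 0.12) and Gucy1b3 (-0.79 ± 0.10) and the intermediate filament gene Des (-0.92 ± 0.14) were lower, at adjusted p values of 1.42e-07, 2.84e-06 and 2.57e-05. Mcam, an adhesion gene shared by pericytes and endothelium, was higher (1.25 ± 0.09, adjusted p = 5.09e-09). Of 17 other smooth muscle genes, 7 were lower and 0 higher, a share called near the 38.3% of all genes. The falls were led by the myosin phosphatase subunit gene Ppp1r12b (-1.36 ± 0.11) and Mrvi1, a target of the cGMP kinase (-1.31 ± 0.11). The actin-bundling gene Synpo2 (-1.17 ± 0.12) and Rasl12 (-0.95 ± 0.12) came next. The median of the 17 was -0.19, and 0.07 after scaling to the same median, under which 6 were lower and 4 higher. Srf, the factor that myocardin acts with, was at 1559 ± 252 in controls and 1765 ± 309.9 in the DKO-labelled libraries (0.17 ± 0.14, adjusted p = 0.381).

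Of 12 other mesothelial genes, 4 were lower and 1 higher, a share called near that of all genes (38.3%). Aldh1a2, which makes retinoic acid in the mesothelium, rose from 16.1 ± 7.16 to 148 ± 39.7 (3.17 ± 0.30, adjusted p = 1.25e-07). Gpm6a, a membrane glycoprotein gene, fell by 1.09 ± 0.17, and the low-level genes Lrrn4 and Rspo1 gave -1.39 ± 0.37 and -1.26 ± 0.37. Wt1 and Aldh1a2 thus rose in libraries where Msln, Upk3b, Lrrn4 and Rspo1 fell.

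Of 13 Schwann cell genes, the glia of cardiac nerves, 8 were lower in the DKO-labelled libraries and 0 higher, with a median of -1.35. Among all genes tested 19.3% were lower and 19.0% higher. Erbb3, the neuregulin receptor of Schwann cells, fell from 151 ± 5.34 to 41 ± 17.1 (-1.93 ± 0.22, adjusted p = 9.77e-07), the potassium channel gene Kcna1 by 1.97 ± 0.25 and the cadherin gene Cdh19 by 1.54 ± 0.22. The summed level of the 13 genes was 36 to 46.8% of the control mean, below that of the fibroblast, pericyte and smooth muscle genes.

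Genes of the endothelial signals that mural cells and fibroblasts receive were listed as well. Of 8 ligand genes of the PDGF and Notch receptors, 1 was higher in the DKO-labelled libraries and 2 were lower, a share called near the 38.3% of all genes. Pdgfa, a ligand of the receptor of Pdgfra, rose from 448 ± 18.8 to 1162 ± 95.9 (1.37 ± 0.11, adjusted p = 1.39e-08). The Notch ligand genes Dll1 and Jag1 fell, Dll1 from 1541 ± 293 to 452 ± 93.3 (-1.77 ± 0.13, adjusted p = 7.02e-09) and Jag1 from 5090.4 ± 466 to 3640.3 ± 300.2 (-0.48 ± 0.09, adjusted p = 0.000218). Pdgfb, the gene of PDGF-B, was on this list and was not called in the main fit. After scaling to the same median 3 of the ligand genes were higher and 1 lower. None of the genes in these further lists was called in K2KO or K4KO against control.

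In the authors' deposited table, 14 of the 32 genes have an adjusted p below 0.05 between DKO and control, and each of the 14 was also called by limma. Anpep, Fbln1, Gsn and Upk3b were called by limma alone. The authors' deposited table calls 1 gene of the 32 in K4KO against control and 0 in K2KO against control. The share of all genes that the authors' values call was not counted, so these counts have no background beside them.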

How the data were processed

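RNA of 16 libraries was sequenced from a stranded Illumina kit, per the labels' protocols. The submitters' processing notes name TopHat, Cuffdiff and GRCm38 without their roles, and no source used here gives the counting tool, its annotation or its use of strand. The authors deposited 1 table of 43629 genes whose 16 library columns hold a signal, gene reads divided by 1 factor per library. In each column 100% of the values gave whole reads within 0.001 reads, which recovers the counts. The authors also deposited an adjusted p-value for 6 comparisons, used here to count their calls.

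The main test took log2(value + 1), since the values are scaled, into limma 3.58.1 under R 4.3.3, with a trended empirical Bayes step. It kept genes reaching a value of 1 in 4 or more libraries, 23816 in all, with 4 group means in 1 model, no covariate and Benjamini-Hochberg adjustment within each of 7 comparisons. A change on this scale understates that of genes with few reads, and counting error sets the precision of the lowest genes. The fit was tested on simulated data. edgeR 4.0.16 and DESeq2 1.42.0 on the recovered reads were alternatives, beside other pseudocounts, filters and scalings, fits of only the groups compared, a replicate block and leaving out libraries. Leaving out K2KO 2 and K4KO 1 together was chosen after seeing the data: their reads differed from those of their own group by a chi-square of 118 to 196 per degree of freedom, and other pairs of a group by 9.56 to 66.4. No pair of libraries was identical.

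Control and K4KO libraries of the same number deviated together, with correlations of 0.14, 0.22, 0.26 and 0.52. These were taken over 11315 genes with a mean of at least 100. K4KO 1 and control 2 correlated at 0.399, above the value of either with its own number. The numbers were used as pairs only in the replicate block, and the main fit ignored them. Exon lengths are from GENCODE M21, for 32 of 32 genes, and gene positions are those of the table on GRCm38. The genes and lists were chosen with earlier results of these data known. The genes named are the 32, Klf2 and Klf4, and, of each further list, up to 4 genes ranked by their p between DKO and control. A gene that the rule takes from the Schwann cell list is not reported here. Pecam1, Srf and Pdgfb were named outside that rule, after their values were seen.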

Additional observations from a re-analysis of the deposited data

Results flagged for a closer look

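In 4 of 128 groups of 4 libraries, 1 library lay far from the other 3, its gap to the nearest being a share of the whole range above Dixon's critical value, where chance gives about 1 in 20 such groups. They were Dcn in DKO library 4, the highest of its group at 5112.85 scaled counts, Pi16 in K2KO library 3, the lowest at 529.444, Lmod1 in control 4, the lowest at 754.828, and Wt1 in K2KO library 2, the lowest at 1432.03. DKO library 4 is the deepest library, K2KO library 2 is among those that stood apart, and control 4 was the lowest control for 6 of the 8 smooth muscle genes.

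The change from control in the DKO-labelled libraries differed from the sum of the K2KO and K4KO changes for 20 genes, by the interaction contrast of limma with an adjusted p below 0.05, where 26.7% of all genes were called. Values are log2. Under 24 alternatives Fbln1 was called in 14 and Tcf21 in 9. Among fibroblast genes it was -0.9764 for Fbln1, -1.087 for Dcn, -0.8357 for Pi16, -1.301 for Dpt, -1.203 for Gsn, -0.8615 for Pdgfra and -1.255 for Tcf21. Among pericyte genes it was -0.9643 for Vtn, -0.9317 for Rgs5, -1.021 for Notch3, -0.6453 for Anpep and 1.17 for Cd248. Among smooth muscle genes it was -1.288 for Cnn1, -1.54 for Myh11, -1.766 for Myocd, -0.7826 for Mylk, -0.8622 for Tagln, -0.7637 for Acta2 and -1.774 for Lmod1. Among mesothelial genes it was 0.9994 for Wt1.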

How the results depend on the processing

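With 26 alternatives beside the main fit, the 32 genes in DKO against control had 3 to 4 higher and 14 to 18 lower when 1 library was left out. They had 3 higher and 16 lower without K2KO 2 and K4KO 1, 4 and 19 with edgeR and 4 and 16 with DESeq2. Over all genes tested, the calls without K2KO 2 and K4KO 1 were 9204 of 23816, 4582 higher and 4622 lower. With edgeR they were 8946 of 15694, 4240 higher and 4706 lower, and with DESeq2 9227 of 35324, 4594 higher and 4633 lower. With the same median the number higher was 5 in place of 3, and for the interaction 4 and 10 in place of 2 and 18. Over all genes that scaling gave 6922 higher and 2908 lower in DKO against control. For the interaction it gave 5825 higher and 2113 lower. The number lower in K4KO against control was 0 in place of 1 with only the groups compared and without K2KO 2 and K4KO 1, and 0 to 1 when 1 library was left out. The replicate block left Pi16 called there (adjusted p = 0.0334) and changed no other call of the 32. The number higher in K2KO against K4KO was 0 in place of 1 without K2KO 2 and K4KO 1.

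Over all genes, calls in K2KO against control were 40, and 24 with no filter, 63 with only the groups compared, 123 with DESeq2, 18 without K2KO 2 and K4KO 1 and 13 to 137 when 1 library was left out. In K4KO against control they were 15, and 8, 2 and 80 with the first 3 of these and 4 to 23 when 1 library was left out. Between K2KO and K4KO they were 106, and 303 with DESeq2, 30 without K2KO 2 and K4KO 1 and 54 to 211 when 1 library was left out.

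Signs turned in DKO against control with the same median for Lum (0.09281), Higd1b (0.05507) and Acta2 (0.00143) and with quantile normalisation for Kcnj8 (-0.1081) and Abcc9 (-0.09118). For Kcnj8 the value also turned without control 4, DKO 3 or DKO 4, and ranged from -0.1216 to 0.1251 when 1 library was left out. None of these genes was called in the main fit. The cause of these shifts was not tested. Msln, Upk3b, Clec3b and Tcf21 have few reads in most libraries, which limits what can be seen of them.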
